A study of Mus musculus with 15 samples.

Results

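The proteasome genes described here are those whose platform gene symbol begins with Psma, Psmb, Psmc, Psmd, Psme, Psmf or Psmg followed by a digit. The rule found 50 genes of the 19452 with a single symbol, carried by 56 of the 25175 probe sets, and where a gene had several probe sets the brightest at 0 min was used. By role they are 7 alpha and 7 beta subunits of the 20S core, 5 inducible or tissue-restricted core subunits, 6 ATPases of the 19S base, 3 further base and ubiquitin-receptor subunits, 8 lid subunits, 3 chaperones of base assembly, 4 chaperones of core assembly, 4 activators and 1 inhibitor. The other 2, Psmc3ip and Psme3ip1, are named for proteins they bind and are not proteasome subunits, so 48 genes are proteasome genes in the strict sense. All 50 symbols were found in RefSeq's mouse gene table. At 0 min 47 of the 50 lay above the median of their array in at least 2 of 3 replicates, and the 3 that did not were Psma8, Psmb8 and Psmb11.

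All arrays came from proliferating C2C12 cells, a mouse myoblast line, that carried the empty LKO1 vector and were grown with puromycin. Every sample was treated with 8 µg/mL actinomycin D for 30 min before the sample called 0 min, so no untreated cells are in the comparison. Later samples were taken at 10, 50, 110 and 230 min. There were 3 replicate time courses, and the 15 samples went onto 15 Affymetrix Mouse Gene 1.0 ST arrays. The sources used here do not say whether the time courses were separate cultures, so p-values measure the spread between these samples, which may be technical.

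The proteasome degrades proteins that carry ubiquitin chains. Its 20S core is a barrel in which alpha rings gate the entrance and beta rings hold the proteolytic sites, and its 19S particle has a base of ATPases that unfold substrates and a lid that removes ubiquitin. Dedicated chaperones assemble both particles, and the Psme proteins can cap the core in place of the 19S particle. In muscle this system degrades contractile proteins during atrophy, and in dividing myoblasts it clears cell cycle and myogenic regulators. Actinomycin D blocks RNA synthesis, so levels after its addition report how long existing transcripts persist.

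ETS family transcription factors recognise the element CCGGAAG, which stands close to the start of several proteasome genes. RefSeq promoter windows of assembly GRCm38.p6 were found for 40 of the 48 genes. In the 250 bases before the start, CCGGAAG on either strand stood in 12 of the 40 genes (30%), against 7.83% of all 27025 genes with a window and 16.9% of the 8030 whose transcript lay above the array median. The core of the antioxidant response element, TGACNNNGC on either strand, stood in 5 of 40 genes (12.5%, against 11.5% of all genes and 13.75% of the 8030). Its full form TGACTCAGC stood in 0 of 40 (0.426% of all genes and 0.411% of the 8030). CCAAT, on either strand, stood in 14 of 40 (35%, against 37.5% of all genes and 40.8% of the 8030). The 5 stretches printed here carry the ETS element, in capitals, at genes from across the range of decay slopes, steepest first. Each is written on the gene's own strand, and CTTCCGG is the same element read from the other strand.
Psmc1, chr12:100110164-100110190, + strand, 28 to 22 bases before the start: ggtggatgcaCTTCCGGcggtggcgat
Psmg1, chr16:95991013-95991039, - strand, 69 to 63 bases before the start: tcgcggcggaCCGGAAGctcttaggtt
Psmd12, chr11:107479501-107479527, + strand, 17 to 11 bases before the start: gagcgggcgaCTTCCGGtgcgagtgac
Psmd4, chr3:95042723-95042749, - strand, 125 to 119 bases before the start: tacagctgttCCGGAAGctgctgcgaa
Psmd2, chr16:20651616-20651642, + strand, 26 to 20 bases before the start: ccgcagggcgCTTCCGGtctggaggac
The 12 genes with the element had slopes between -0.39 and -0.13 log2 per hr, and the 28 without it between -0.46 and -0.09. A match to these letters is a description of the window and not evidence of binding.

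The deposited values are linear ratios to the 5th percentile of each array, so a value near 1 means that a probe set was among the dimmest of its array. Myoblast identity was checked with marker genes. All 6 myoblast markers lay above the array median at 0 min, while 3 of 6 myotube markers, 1 of 4 blood and immune markers, 0 of 3 endothelial and 0 of 3 adipocyte markers did so. The RNA came from whole cultures, in which fewer cells of a type and less RNA per cell cannot be told apart, and a fixed mass of total RNA was labelled for each array, so a level is not an amount per cell. A pair of arrays stood low. The 75th percentile of the 110 min array of replicate 1 was 3.90, below the 4.63 of its own time course at 230 min. That of the 230 min array of replicate 2 was 2.89, against 4.63 and 3.99 in replicates 1 and 3 at 230 min. At 0 min the values were 7.80 to 9.81.

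The slopes of the proteasome transcripts ran from -0.46 log2 per hr for Psmd5 to -0.09 for Psma8. A straight line was fitted with limma to the log2 levels of all 25175 probe sets against time, with the time course as a block. All 50 genes fell (limma adjusted p under 0.05) and 0 rose with arrays scaled to the 5th percentile, whereas 12 fell and 3 rose when each array was divided by its median, and 2 fell and 24 rose when it was divided by its 75th percentile. The background shifted with the scaling too. With the 5th percentile 75.8% of all probe sets fell and 0.302% rose, and among the 12544 probe sets above the array median at 0 min 96.4% fell and 0.0239% rose, so that 47 of 47 expressed proteasome genes is near the background. With the median 21.4% of all probe sets fell and 40.3% rose, and with the 75th percentile 7.56% and 74.1%. Shares among expressed probe sets are not given for these scalings. The counts by role further on stand against these same shares and were not tested. Dividing by the median adds 0.18 log2 per hr to every slope, and dividing by the 75th percentile adds 0.32, so only differences between genes are free of this choice.

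The median slope of the 50 genes was -0.25 log2 per hr, with medians of -0.21, -0.36 and -0.18 in replicates 1, 2 and 3 (SD 0.10, n = 3). The median of all probe sets was -0.14 and that of the expressed ones -0.25. Of the 47 proteasome genes above the array median, 25 had a steeper and 22 a shallower slope than the expressed median. The interquartile range of these 47 was 0.08 log2 per hr wide, against 0.14 for all expressed probe sets, a difference in spread that was not tested, and 32 of the 47 lay inside the middle range of expressed probe sets (-0.33 to -0.19), 6 below it and 9 above. Without replicate 2 the number of genes that fell was 35 of 50, and without the 230 min arrays it was 37 of 50. The share of all probe sets that fell in these settings is not given here, so these counts describe the genes alone.

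**Figure D1:**
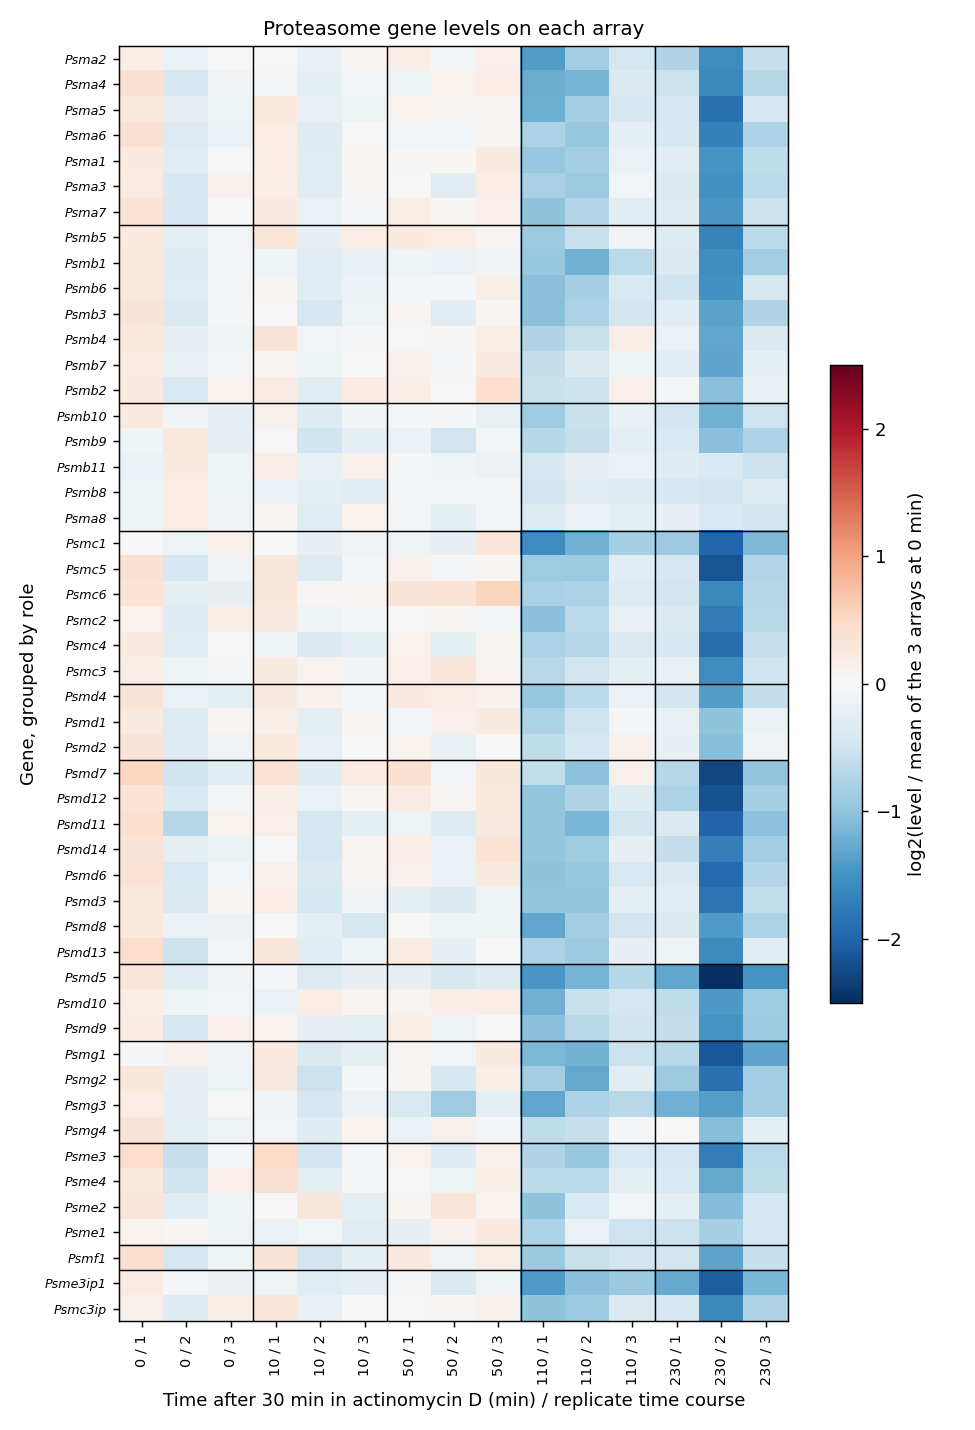
Level of each of the 50 genes (rows, grouped by role) on each of the 15 arrays (columns, time in min and replicate time course), as log2 of the level over the gene's mean at 0 min, with arrays scaled to their 5th percentile. Blue at 110 and 230 min is deepest on the 230 min array of replicate 2, which held the lowest 230 min value for 48 of 50 genes.

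The medians were near 0 at the first 2 later times and below it at the last 2. At 10 min the median change of the 48 proteasome genes from 0 min was -0.03 ± 0.06 log2 (SD, n = 3), and at 50 min it was 0.06 ± 0.25. By 110 min it was -0.62 ± 0.50, and by 230 min -0.83 ± 0.35. In replicates 1, 2 and 3 the medians were -1.19, -0.44 and -0.24 at 110 min and -0.64, -1.23 and -0.61 at 230 min, so the lowest value at each of these times came from 1 of the low arrays. The expressed probe sets had medians of -0.10, -0.11, -0.72 and -0.92 at these times. The medians at 10 and 50 min lay within 1 SD of 0. At 50 min against 0 min, limma called 0 of 50 genes in either direction (background 1.03% lower and 0% higher). The smallest limma adjusted p was 0.327. Of the 50 genes, 31 had the higher mean at 50 min. The share of all probe sets that did so is not given here, and the count may shift with the scaling of the arrays, so it describes these genes alone. The 1 gene with an unadjusted p under 0.05 was Psmg3, which was lower, and with arrays divided by the 75th percentile 0 genes fell and 1 (Psmc6) rose (background 0.691% and 0.0397%), with the median 0 and 0 (background 0.56% and 0.0119%).

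By 230 min 45 of the 50 genes had fallen against 0 min (limma adjusted p under 0.05, background 68.8% of all probe sets and 94.3% of expressed ones) and 0 had risen (background 0.0993%). Dividing arrays by their median left 8 that fell and 3 that rose (background 16.9% and 35.8%), and dividing by the 75th percentile left 1, Psmd5, that fell and 25 that rose (6.94% and 70.4%). The 5 genes short of the threshold were Psmd1, Psmd2, Psmb2, Psme2 and Psmg4. Without replicate 2, 17 of 50 fell, and the background share in that setting is not given here. The 3 values at 230 min lay below all 3 at 0 min for 35 of 50 genes (background 71.7% of all probe sets and 84.3% of expressed ones). The low arrays are visible in nearly every gene, since the 110 min value of replicate 1 was below its 230 min value for 48 of 50.

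**Figure D2:**
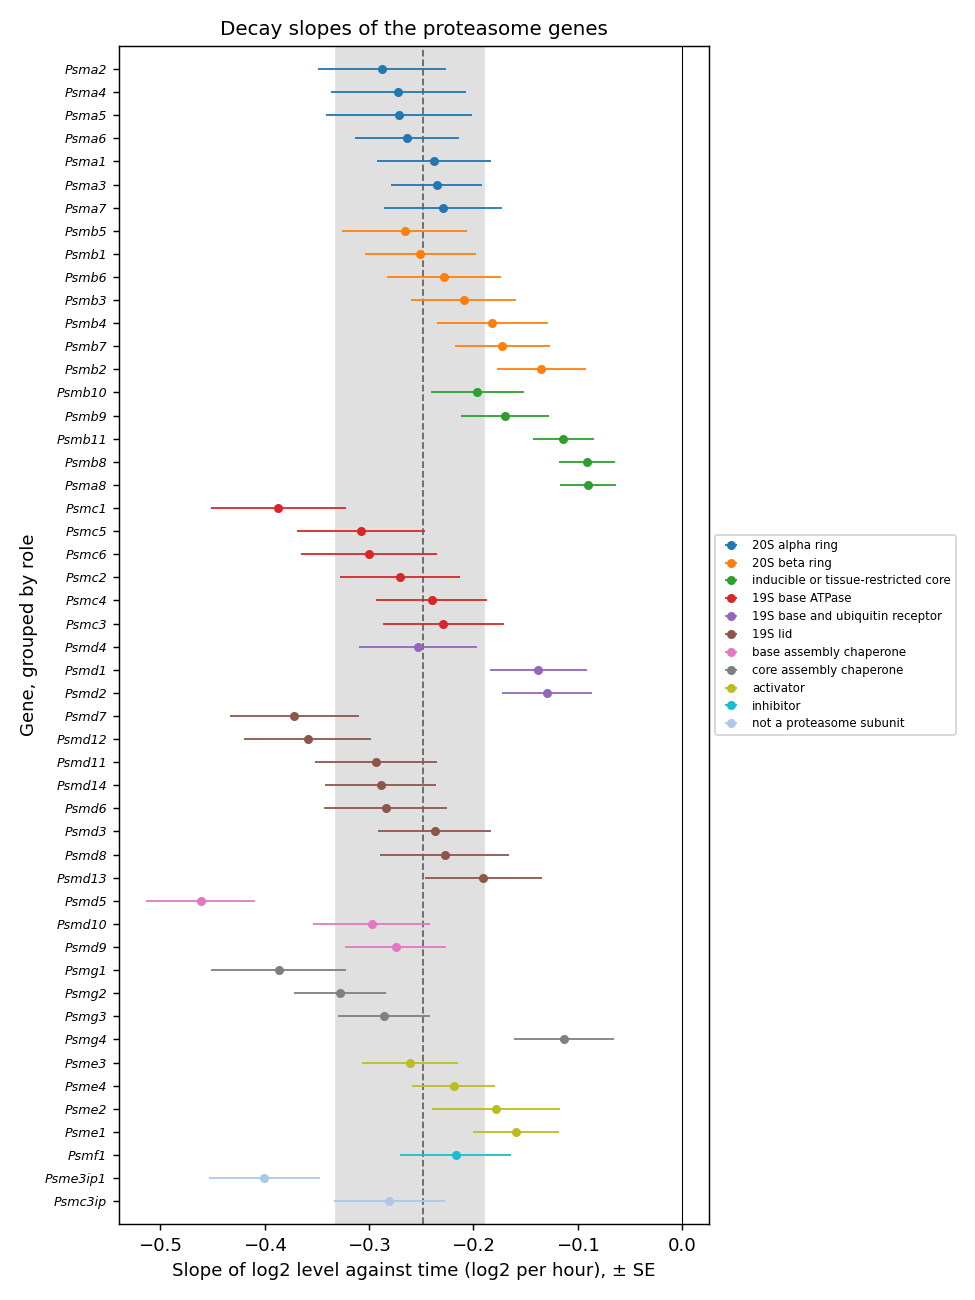
Slope of log2 level against time (log2 per hr) for each of the 50 genes, with its standard error, coloured by role; the dashed line is the median of expressed probe sets (-0.25) and the grey band their interquartile range (-0.33 to -0.19). Arrays are scaled to their 5th percentile, and dividing them by their median or 75th percentile moves every point right by 0.18 or 0.32, past 0 for some.

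The 7 alpha subunits, which form the outer gated rings of the core, had slopes from -0.29 log2 per hr for Psma2 to -0.23 for Psma7. A second probe set of Psma5 had -0.20 ± 0.06 (SE), outside that range, against -0.27 ± 0.07 at the chosen one. Of the alpha subunits 7 of 7 fell with arrays scaled to the 5th percentile, 0 with the median, while 3 of 7 rose with the 75th percentile. Psma2 had levels of 26.8, 21.2 and 23.6 at 0 min and 14.2, 8.07 and 16.0 at 230 min in replicates 1, 2 and 3. Psma7 had 45.4, 26.6 and 35.9 at 0 min and 29.2, 13.1 and 24.96 at 230 min. The values of Psma2 did not overlap between these times, and those of Psma7 did, since its replicate 1 at 230 min was above its replicate 2 at 0 min. The slopes were -0.29 ± 0.06 (SE, limma adjusted p = 0.00088) and -0.23 ± 0.06 (adjusted p = 0.0024).

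The beta subunits had slopes from -0.27 for Psmb5 to -0.13 for Psmb2, and 7 of 7 fell with the 5th percentile, 0 with the median, while 5 of 7 rose with the 75th percentile. Psmb5, which holds the chymotrypsin-like site, had levels of 24.5, 17.6 and 19.7 at 0 min and 16.8, 6.46 and 13.0 at 230 min, with no overlap. Its slope was -0.27 ± 0.06 (SE, limma adjusted p = 0.0012). Psmb6, with the caspase-like site, had -0.23 ± 0.05 and Psmb7, with the trypsin-like site, -0.17 ± 0.05, and differences between the catalytic subunits were not tested. Psmb2, a non-catalytic subunit, had 32.2, 21.3 and 29.1 at 0 min and 27.1, 13.3 and 24.2 at 230 min. Each time course fell, to 84.2%, 62.6% and 83.1% of its own 0 min value, but the 2 times overlapped, and the slope was -0.13 ± 0.04 (adjusted p = 0.011, 0.12 without replicate 2).

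Of the core subunits of specialised proteasomes, Psma8, Psmb8 and Psmb11 were close to the dim end of the arrays, while Psmb9 and Psmb10 lay above the array median. Psmb8, Psmb9 and Psmb10 replace the constitutive catalytic subunits in the immunoproteasome, which interferon induces, Psmb11 takes the place of a catalytic subunit in the thymus cortex, and Psma8 is an alpha subunit of the testis. Psma8 had levels of 1.31, 1.60 and 1.33 at 0 min, Psmb11 of 1.51, 2.00 and 1.58, and Psmb8 of 1.73, 2.12 and 1.74, all below 2.74, the highest array median at that time. Psma8, Psmb11 and Psmb8 had slopes of -0.09, -0.11 and -0.09 log2 per hr and fell with the 5th percentile, but rose with the median and with the 75th percentile. Subtracting the 5th percentile before taking logs gave -0.18, -0.32 and -0.25. The call of Psma8 was lost without replicate 3 (limma adjusted p = 0.10) and that of Psmb8 without replicate 2 (0.077). Psmb10 had 6.05, 4.78 and 4.42 at 0 min and 3.64, 2.20 and 3.54 at 230 min, a slope of -0.20 ± 0.04 (SE, limma adjusted p = 0.0014). Psmb9 had 3.43, 4.42 and 3.20 at 0 min and 2.82, 1.79 and 2.13 at 230 min, a slope of -0.17 ± 0.04 (adjusted p = 0.0025). Neither overlapped between the times, and both rose with the 75th percentile, while with the median neither passed the threshold. With the 5th percentile subtracted the slopes were -0.27 for Psmb10 and -0.28 for Psmb9.

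The ATPases of the base, the motor that unfolds substrates, had a median slope of -0.29 log2 per hr. With the 5th percentile 6 of 6 fell, with the median 2 did (Psmc1 and Psmc5), and with the 75th percentile 0 fell and 1 rose. Psmc1 had the steepest slope at its chosen probe set, with levels of 26.7, 24.7 and 29.4 at 0 min and 14.3, 6.82 and 12.3 at 230 min and no overlap. Its slope was -0.39 ± 0.06 (SE, limma adjusted p = 0.00013), but its other probe set, with nearly the same mean at 0 min (26.8 against 26.9), had -0.27 ± 0.05. Psmc3 was the shallowest, with 33.8, 27.7 and 29.9 at 0 min and 26.8, 10.3 and 21.7 at 230 min, a slope of -0.23 ± 0.06 (adjusted p = 0.0029, 0.050 without replicate 2).

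The large base scaffolds Psmd1 and Psmd2, which hold substrate shuttles and ubiquitin, had among the shallowest slopes of the set, at -0.14 ± 0.05 and -0.13 ± 0.04 log2 per hr (SE). Psmd2 had levels of 81.0, 53.0 and 60.9 at 0 min and 56.5, 30.9 and 61.0 at 230 min. Replicate 3 ended at 100.1% of its start while replicates 1 and 2 ended at 69.8% and 58.4%, and the times overlapped (limma adjusted p of the slope 0.014, 0.21 without replicate 2). A second Psmd2 probe set had -0.11 ± 0.05. Psmd4, the ubiquitin receptor, was steeper at -0.25 ± 0.06 (adjusted p = 0.0012), with 24.0, 17.1 and 16.5 at 0 min and 14.0, 7.31 and 12.6 at 230 min. With the 5th percentile all 3 fell, with the median 0 did, and with the 75th percentile 2 rose.

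Lid subunits had a median slope of -0.29 log2 per hr, and 8 of 8 fell with the 5th percentile, 3 (Psmd7, Psmd12 and Psmd14) with the median, while 3 rose with the 75th percentile. Psmd7, the partner of the deubiquitinase Psmd14, had levels of 50.3, 24.5 and 29.0 at 0 min and 21.1, 7.18 and 17.4 at 230 min, with no overlap. Its slope was -0.37 ± 0.06 (SE, limma adjusted p = 0.00012, 0.091 without the 230 min arrays). In replicate 3 its level was 37.9 at 110 min, still above the 29.0 at 0 min, and then 17.4 at 230 min. Psmd12 was close to it at -0.36 ± 0.06. Psmd13 was the shallowest, with 31.9, 16.1 and 22.4 at 0 min and 21.5, 7.74 and 19.3 at 230 min, which overlapped, and a slope of -0.19 ± 0.06 (adjusted p = 0.0071, 0.13 without replicate 2).

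The chaperones that build the particles held the steepest slope of all 50 genes and 1 of the shallowest. Psmd5, a chaperone of the ATPase ring, had levels of 26.2, 17.8 and 20 at 0 min, 18.4, 16.2 and 17.2 at 50 min, 7.81, 9.51 and 13.0 at 110 min and 8.71, 3.74 and 7.57 at 230 min. All 3 time courses ended between 21.0% and 37.9% of their start, with no overlap. The slope was -0.46 ± 0.05 log2 per hr (SE, limma adjusted p = 4.79e-06). Psmd5 was 1 of 2 genes, with Psme3ip1, that fell under all 3 scalings, with a slope of -0.14 ± 0.03 (adjusted p = 0.00021) even after division by the 75th percentile. The other base chaperones were Psmd10, also known as gankyrin, at -0.30 ± 0.06 and Psmd9 at -0.27 ± 0.05. Psmd9 had 10.4, 6.67 and 9.74 at 0 min and 5.87, 3.16 and 4.74 at 230 min.

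Psmg1 and Psmg2 act as a pair in alpha ring assembly, as do Psmg3 and Psmg4. Psmg1 had levels of 16.6, 18.3 and 16.0 at 0 min and 10.5, 3.89 and 6.76 at 230 min, a slope of -0.39 ± 0.06 log2 per hr (SE, limma adjusted p = 0.00013). Psmg2 had -0.33 ± 0.04 and Psmg3 -0.29 ± 0.04. Psmg4 had 5.6, 3.78 and 4.10 at 0 min and 4.49, 2.16 and 3.86 at 230 min, with overlap, and a slope of -0.11 ± 0.05 (adjusted p = 0.044). In replicates 1, 2 and 3 the slopes were -0.37, -0.27 and -0.22 for Psmg3 and -0.06, -0.23 and -0.05 for Psmg4, and the difference between the partners was not tested. The call of Psmg4 was lost, with the sign kept, in 9 alternatives, among them without replicate 2 (adjusted p = 0.39) and without the low arrays (0.29). Across the 7 chaperones 7 fell with the 5th percentile, 6 with the median and 1 with the 75th percentile, under which Psmg4 rose. Of all probe sets 75.8%, 21.4% and 7.56% fell with these scalings, and of expressed ones 96.4% with the 5th percentile. The share of expressed probe sets that fell with the median is not given here, and the chaperones were not tested as a group.

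The 4 activators had a median slope of -0.20 log2 per hr. Psme1 and Psme2 form the interferon-responsive cap, Psme3 a nuclear cap, and Psme4 a cap known for its part in histone degradation. With the 5th percentile 4 of 4 fell, with the median 0 did, and with the 75th percentile 3 rose. Psme1 had levels of 19.7, 18.8 and 16.8 at 0 min and 12.7, 10.3 and 13.6 at 230 min, with no overlap, and a slope of -0.16 ± 0.04 log2 per hr (SE, limma adjusted p = 0.0034). Its cap partner Psme2 had 23.1, 15.6 and 17.2 and then 16.0, 8.75 and 13.8, which overlapped, with -0.18 ± 0.06 (adjusted p = 0.016). Without replicate 2 neither passed (adjusted p = 0.061 for Psme1 and 0.18 for Psme2), and without the low arrays Psme2 did not (0.059). The members of this pair thus had slopes within 1 standard error of each other. Psme3 had 43.7, 21.6 and 31.7 at 0 min and 24.3, 9.77 and 20.2 at 230 min, which overlapped, with -0.26 ± 0.05 (adjusted p = 0.00019), and Psme4 had 23.1, 13.7 and 21.0 and then 14.8, 7.95 and 12.4, which also overlapped, with -0.22 ± 0.04 (adjusted p = 0.00025). Psmf1, which inhibits the core in vitro, had 13.5, 7.72 and 9.56 at 0 min and 7.44, 4.10 and 6.84 at 230 min. Its slope was -0.22 ± 0.05 (adjusted p = 0.0024), and it rose with the 75th percentile.

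Of the 2 genes that are not proteasome subunits, Psme3ip1 lay at the steep end of the range and Psmc3ip inside it. Psme3ip1, which encodes a binding partner of Psme3, had levels of 9.77, 8.17 and 7.46 at 0 min and 3.54, 2.02 and 3.81 at 230 min, a slope of -0.40 ± 0.05 log2 per hr (SE, limma adjusted p = 1.86e-05). Psmc3ip, a factor of meiotic recombination, had 7.15, 5.42 and 7.47 and then 4.90, 2.18 and 3.99, a slope of -0.28 ± 0.05 (adjusted p = 0.00037). Neither gene overlapped between the times. With the 75th percentile Psme3ip1 still fell (-0.08 ± 0.03, adjusted p = 0.020), and Psmc3ip had 0.04.

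To set the scaling of the arrays aside, each gene was also expressed relative to the median of the 48 proteasome genes on the same array. By this measure the chaperones Psmd5, Psmg1 and Psmg2, the ATPases Psmc1, Psmc5 and Psmc6, and the lid subunits Psmd7, Psmd12 and Psmd6 declined relative to the others in all 3 time courses. Psmc1 stands among them by its chosen probe set, and its other, shallower probe set was not set against them. These signs were not tested. Psmd5 lost 0.22, 0.19 and 0.19 log2 per hr against the set in replicates 1, 2 and 3. Of the genes above the array median Psmg4 had the largest mean gain, with 0.15, 0.18 and 0.12. Psmg4 was dim, with a mean level of 4.49 at 0 min. With the 5th percentile subtracted before taking logs its slope was -0.17, against a median of -0.28 for the 50 genes. Among the others above the array median Psmd2 gained 0.13 ± 0.08 (SD, n = 3), Psmb2 0.13 ± 0.06 and Psmd1 0.12 ± 0.06. Next came Psme1 with 0.10 ± 0.08, Psmb9 with 0.09 ± 0.07 and Psmb7 with 0.09 ± 0.02. Psmb9 was dim as well, with a mean level of 3.68 at 0 min. With the 5th percentile subtracted its slope was -0.28, level with the median of -0.28 for the 50 genes. Of the 48 genes 9 declined and 15 gained in all 3 time courses, and 24 had mixed signs. The 15 include Psma8, Psmb8 and Psmb11, with mean gains of 0.17, 0.17 and 0.15. These lay near the dim end of the arrays, where a level has little room to fall. The share of all probe sets with such signs is not given here. A shift against the other genes shows unequal decline and not that either stayed constant.

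**Figure D3:**
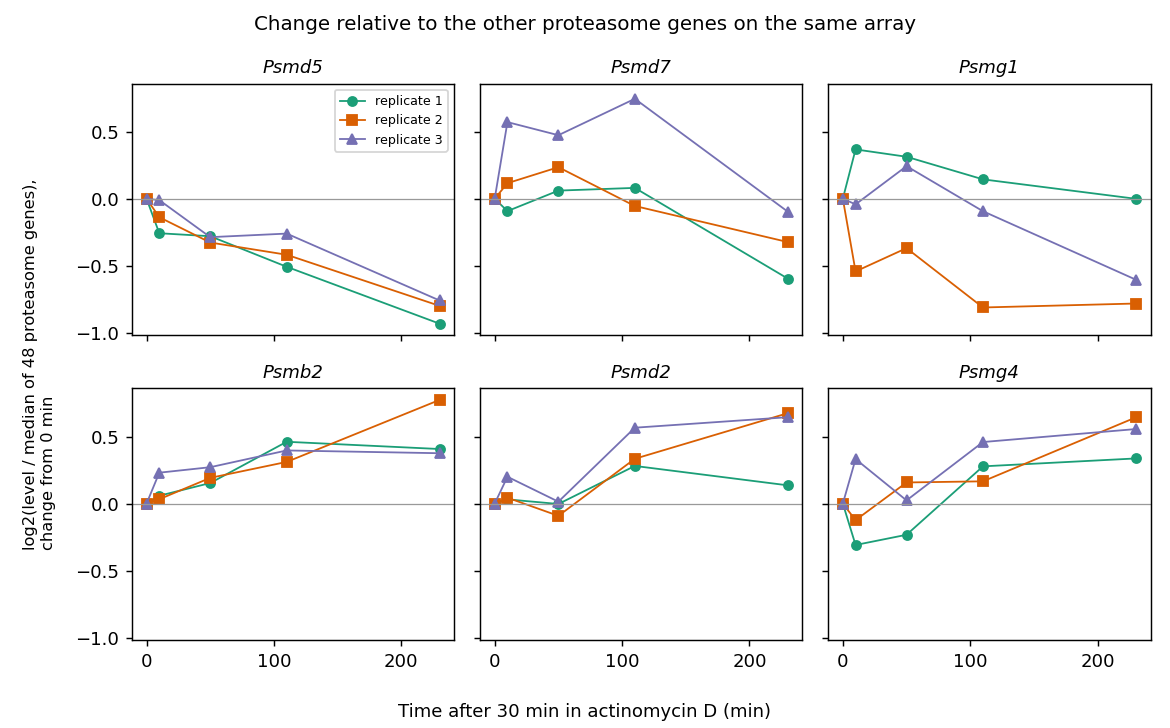
Change from 0 min of log2 level minus the median of the 48 proteasome genes on the same array, against time in min, for 3 genes that lost and 3 that gained, with 1 line per replicate time course. Psmd5 declined in all 3 time courses with slopes of -0.22, -0.19 and -0.19 log2 per hr, while Psmg4 gained 0.15, 0.18 and 0.12; these differences do not depend on which percentile the arrays are divided by.

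Half-lives were fitted as first-order decay in each time course and called reliable by thresholds after those of the study, a p of the decay rate under 0.05 and a 95% interval narrower than 2 times the half-life, in at least 2 of 3 replicates. The fit and the profile interval are those used here, and the study's own fit and interval are not given in full in the sources used here, so the calls are not those of the study. By this fit 1 of 50 proteasome genes passed (background 5.84% of all probe sets and 11.2% of expressed ones). That gene was Psmd5, with half-lives of 1.72, 1.98 and 2.91 hr and a mean of 2.20 ± 0.627 hr (SD, n = 3). The intervals were 0.608 to 8.55 hr, 1.16 to 3.90 hr and 2.25 to 3.95 hr in replicates 1, 2 and 3, and the first was too wide to count. A further 4 genes (Psmc2, Psmd3, Psmg3 and Psme3ip1) passed in 1 replicate and 45 in none. With arrays divided by their median or 75th percentile 0 of 50 passed.

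The other half-lives are therefore descriptions. The median over the 50 genes was 4.62 hr (4.15 hr for expressed probe sets), and 14 of the 50 means were shorter than the 230 min of observation. Replicates differed in a common direction, with medians of 3.78, 3.18 and 5.98 hr in replicates 1, 2 and 3, and replicate 3 had the longest half-life in 46 of 50 genes. The longest mean, 109 hr for Psmd2, came from replicate 3 alone, where the level hardly moved and the fit gave 316 hr, against 5.08 and 5.03 hr in the others.

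**Figure D4:**
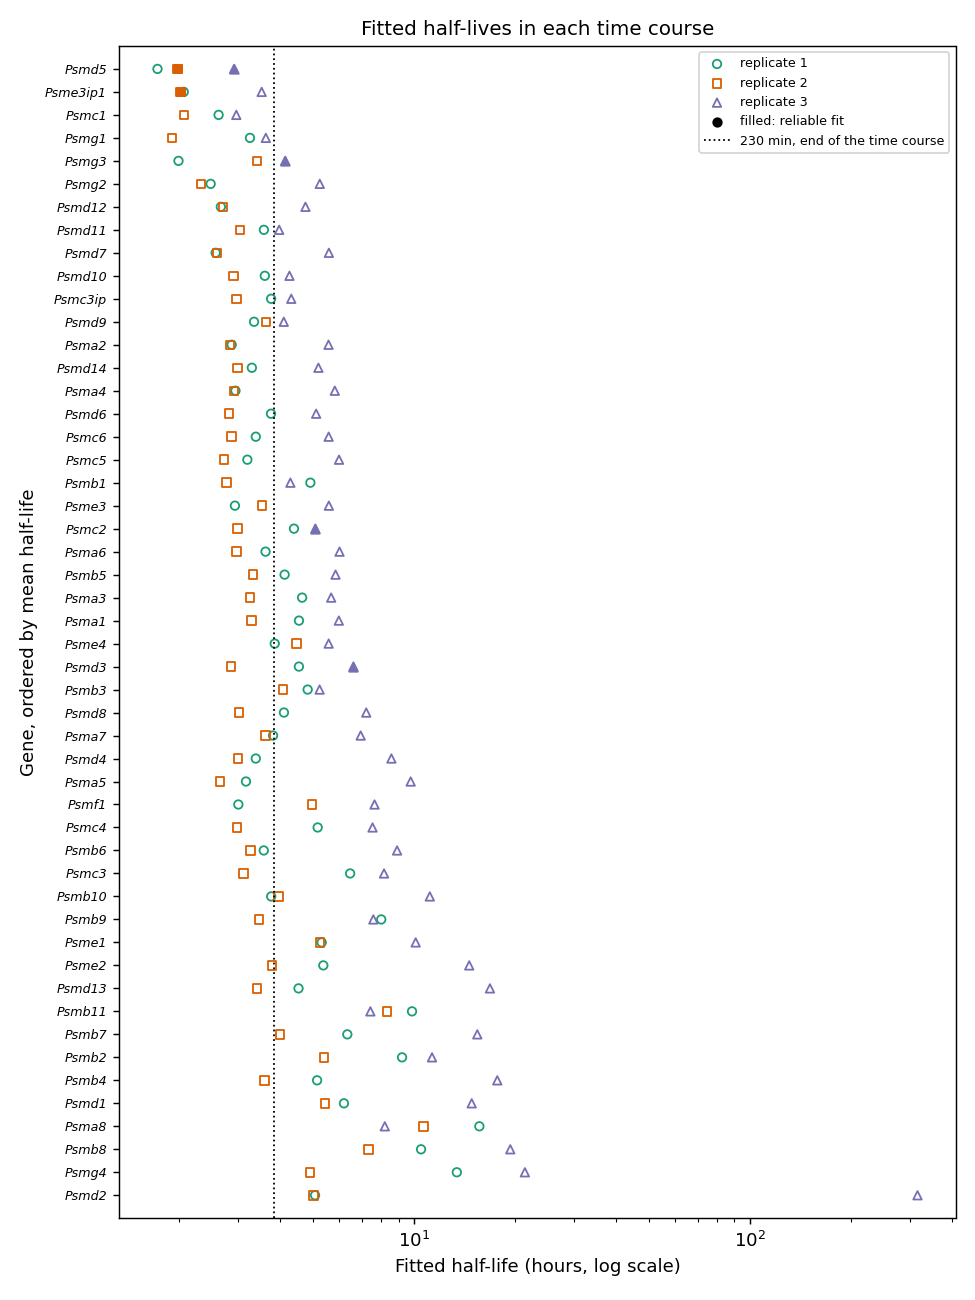
Fitted half-life in each time course (hours, log scale) for the 50 genes, ordered by their mean, with filled symbols for reliable fits and a dotted line at 230 min, the end of observation. Replicate 3 (triangles) is the longest in 46 of 50 genes, and Psmd5 is the only gene with 2 filled symbols.

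Regulators and partners of the proteasome were taken from a list of 29 names, of which 20 were matched. With the 5th percentile 20 of 20 fell (median -0.28 log2 per hr), with the median 10 fell and 0 rose, and with the 75th percentile 4 fell and 9 rose. All 20 lay above the array median at 0 min, and 96.4% of such probe sets fell with the 5th percentile, so that count is near the background. Of all probe sets 21.4% fell and 40.3% rose with the median, and 7.56% and 74.1% with the 75th percentile. The steepest of the list were Zfand5, Akirin2 and Nfe2l2. Zfand5, a zinc finger protein that binds the proteasome and stimulates degradation, had levels of 23.6, 20.7 and 18.9 at 0 min and 4.96, 2.38 and 3.43 at 230 min, a slope of -0.69 ± 0.06 log2 per hr (SE, limma adjusted p = 1.13e-06). Akirin2, which in human cells carries proteasomes into the nucleus, had 19.01, 17.1 and 13.7 at 0 min and 4.0, 2.84 and 3.20 at 230 min, a slope of -0.62 ± 0.05 (adjusted p = 8.04e-07) and a reliable half-life of 1.43 ± 0.363 hr (SD, n = 3). Nfe2l2, the NRF2 factor of the antioxidant response, had 31.8, 16.5 and 19.04 and then 8.49, 3.02 and 4.46, a slope of -0.56 ± 0.05 (adjusted p = 1.47e-06) and a reliable half-life of 1.58 ± 0.412 hr. Both half-lives passed the criteria in replicates 2 and 3 but not in replicate 1, which the means include. Zfand5, Akirin2 and Nfe2l2 fell under all 3 scalings.

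Nfe2l1, the factor that raises proteasome gene transcription when proteolysis is impaired, had a slope inside the range of the subunits, -0.22 ± 0.04 log2 per hr (SE, limma adjusted p = 0.00049), with levels of 21.4, 16.8 and 16.4 at 0 min and 11.8, 9.11 and 10.6 at 230 min. The shallowest of the list were Vcp, the segregase ATPase upstream of the proteasome, at -0.14 ± 0.04 (adjusted p = 0.013), Sem1, a small lid subunit, at -0.16 ± 0.06 (adjusted p = 0.023), and Zfand2a, an arsenite-inducible proteasome partner, at -0.17 ± 0.05 (adjusted p = 0.013). Without replicate 2 the calls of Vcp and Sem1 were lost (adjusted p = 0.18 and 0.26), as they were without the low arrays (0.094 and 0.21), and without replicate 3 that of Zfand2a was (0.059). All 4 of these had slopes above 0 with the 75th percentile. Pomp, the maturation factor of the core, had -0.20 ± 0.06.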

How the data were processed

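Total RNA of 15 samples was hybridised to 15 Affymetrix Mouse Gene 1.0 ST arrays. The deposited values are linear ratios, for which the authors set the 5th percentile of each array to 1. How probes were summarised and corrected for background is not given in the sources used here. The number of arrays limits the precision. The detection calls of the study were not used here. Of 25175 probe sets, 21044 had 1 platform symbol, 1492 several and 2639 none; 1 probe set naming several symbols, including a proteasome gene, was left out.

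Slopes and the contrasts of 50 and 230 min with 0 min were fitted with limma 3.58.1 in R 4.3.3 on log2 ratios of all probe sets, without a pseudocount or level filter and with the replicate time course as a block, followed by eBayes. P-values were adjusted by Benjamini-Hochberg over all probe sets at 0.05. Replicate numbers mark time courses that the study fitted separately. Of 30 pairs of arrays of the same number, 29 had deviations from their time point means that correlated over 0.1 (median 0.36). Of 60 pairs of another number and another time, 14 did so (median -0.22). Taking deviations from a mean of 3 arrays itself lowers correlations between numbers. Half-lives were fitted by least squares on the ratios (scipy 1.17.1, Python 3.11.15). Both programs were tested on simulated data. Named genes were the inducible, activator and inhibitor genes, those with a reliable half-life, the steepest and shallowest of each role, and the 3 steepest and 3 shallowest pathway genes plus Nfe2l1; other genes were named after their values were seen. The members, lists and tests were chosen with earlier results of these data known, and levels relative to the 48 proteasome genes were added after the values were seen. Motifs were searched in RefSeq promoter windows of GRCm38.p6.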

Additional observations from a re-analysis of the deposited data

How the results depend on the processing

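With arrays divided by their median, 12 of the 50 genes fell and 3 rose in the trend, 8 fell and 3 rose at 230 min, the median slope was -0.064 log2 per hr, 10 pathway genes fell, 0 half-lives were reliable and the median half-life was 15.6 hr. With the 75th percentile the values were 2 and 24 in the trend, 1 and 25 at 230 min, 1 that rose at 50 min, a median slope of 0.0722, 4 pathway genes that fell and 9 that rose, 0 reliable half-lives and a median of 28.7 hr. The half-life medians of 15.6 and 28.7 hr cover only the 47 and 25 genes with a fitted decay. With the 5th percentile all 50 had one, so these medians are not over the same genes. The slopes of named genes that turned positive with the 75th percentile were Psma2 0.0303, Psma7 0.0883, Psma8 0.227, Psmb10 0.121, Psmb11 0.204, Psmb2 0.183, Psmb5 0.0515, Psmb8 0.227, Psmb9 0.148, Psmc3 0.0887, Psmc3ip 0.037, Psmd13 0.127, Psmd2 0.188, Psmd4 0.0642, Psmd9 0.0431, Psme1 0.159, Psme2 0.139, Psme3 0.0566, Psme4 0.0986, Psmf1 0.1004, Psmg4 0.204, Zfand2a 0.152, Sem1 0.162, Vcp 0.181 and Nfe2l1 0.0971. With the median they were Psma8 0.091, Psmb11 0.0676, Psmb2 0.0465, Psmb8 0.0903, Psmb9 0.0121, Psmd2 0.0517, Psme1 0.0225, Psme2 0.0032, Psmg4 0.0681, Zfand2a 0.0158, Sem1 0.026 and Vcp 0.0451. Each scaling adds 1 amount to all slopes, and the half-lives were fitted again to the rescaled values.

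The gap between the median slope of the 50 genes and that of all probe sets tested was -0.10 log2 per hr under every scaling, but -0.0046 and -0.0065 among probe sets above the median at 0 min or over all arrays and -0.0102 with the 5th percentile subtracted. The median slope was -0.34 without the 230 min arrays. Reliable half-lives numbered 2 with a straight line on log2 values and 0 without the 0 min arrays, without the 2 low arrays or when required in all 3 replicates. The cause was not tested for these.

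Leaving out 1 replicate gave 35 to 50 genes that fell in the trend, 17 to 47 at 230 min (17 without replicate 2) and 0 to 1 reliable half-lives. Background shares are not given for these settings. Without the replicate block 49 of 50 genes fell in the trend, with Psmg4 lost (adjusted p = 0.063), and 43 at 230 min; the block changed no other call of a named gene. Coding time by rank gives no slope in hours, and the type of interval and the number of reliable replicates do not enter the median half-life, so these gave no value for the medians.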
